A study of Mus musculus with 7 samples.

Results

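The control-fed arm of a glucosylceramide feeding study was taken from 7 two-colour microarrays: 4 samples of dorsal skin after treatment with sodium dodecyl sulfate (SDS) and 3 before it, 7 of the 14 labelled samples in the series. Each array carried RNA of control-fed skin in one dye and RNA of glucosylceramide-fed (GC-fed) skin in the other, and the control-fed sample was in Cy5 where the GC-fed sample was labelled Cy3, and in Cy3 otherwise. All mice were male HR-1, a hairless strain, 5 weeks old by the labels, and ate the purified AIN-93G diet, to which the GC-fed mice had glucosylceramide added. Control-fed mice before SDS had 12 days of diet and 0 detergent treatments. Control-fed mice after SDS had 14 days of diet and 2 daily treatments of the right dorsal side with SDS at 10%, so time on diet also differed between the groups. The labels call the samples biological replicates without saying whether each was 1 animal or a pool, so p-values measure the spread between these samples, which may be partly technical.

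The outer barrier of skin is built by keratinocytes that leave the basal layer, make keratins and envelope proteins, and finally die into cornified cells sealed by ceramides, cholesterol and fatty acids. SDS is a detergent that strips lipids and denatures proteins of this layer, and is a standard irritant. In skin, disruption of the barrier is known to be followed by alarm signals from keratinocytes, entry of leukocytes and division of basal cells. The comparison asks which genes differed between detergent-treated and untreated skin when the diet held no added glucosylceramide.

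In the control-fed channels the median spot signal ran from 179.8 to 240.1 over a local background of 53.5 to 59, and between 51.1% and 60.2% of spots were well above background. Levels below are log2 normalized intensities of a gene's probe and are compared between samples, not between genes. The labelled tissue was borne out by its markers: the basal keratins Krt5 and Krt14, the suprabasal Krt1 and Krt10, the envelope proteins Lor and Flg and the collagen gene Col1a1 were well above background in all 7 samples. Across genes, levels correlated at 0.993 to 0.995 between before-SDS samples, 0.987 to 0.993 between after-SDS samples and 0.977 to 0.992 between the groups. All before-SDS arrays shared one slide and scan, and all after-SDS arrays another. With 0 slides common to the groups, detergent and slide cannot be told apart in any value below.

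On 2 arrays the ratio of GC-fed to control-fed ran against that of the others in its group. The ratio of after-SDS array 4 correlated at -0.5, -0.62 and -0.3 with those of after-SDS arrays 1, 2 and 3, and that of before-SDS array 1 at -0.4 and -0.18 with those of before-SDS arrays 2 and 3. Counts are therefore given with and without these samples, and with their channels exchanged.

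After SDS, 1167 of 17083 genes tested were higher in control-fed skin (6.83%) and 1382 were lower (8.09%), at a limma p-value adjusted by Benjamini and Hochberg under 0.05. The median standard error (SE) of a log2 difference was 0.10. Most differences were modest: 36 genes rose and 43 fell by at least 1 on the log2 scale, which is a doubling or halving. In 2509 genes (14.7%) all 4 after-SDS samples lay above all 3 before-SDS samples, and in 2757 (16.1%) below; 1091 and 1322 of these were among the genes that passed the test. The median log2 difference over all genes was 0.00, with 8576 above 0 and 8507 below.

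These counts rested on single samples. Without before-SDS sample 1 the counts were 35 higher and 77 lower, and that group then held only Cy3 channels. Without after-SDS sample 4 the counts were 1895 higher and 1772 lower, and with the channels of that array exchanged they were 2202 and 2164. With the channels of before-SDS array 1 exchanged they were 697 and 965. After-SDS sample 4 was the after-SDS sample nearest to the before-SDS group in 37.5% of the 2549 genes, against 16.7% for sample 1, 19.3% for sample 2 and 26.6% for sample 3. Among the before-SDS samples, sample 2 was nearest to the after-SDS group in 49.2% of them.

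**Figure D1:**
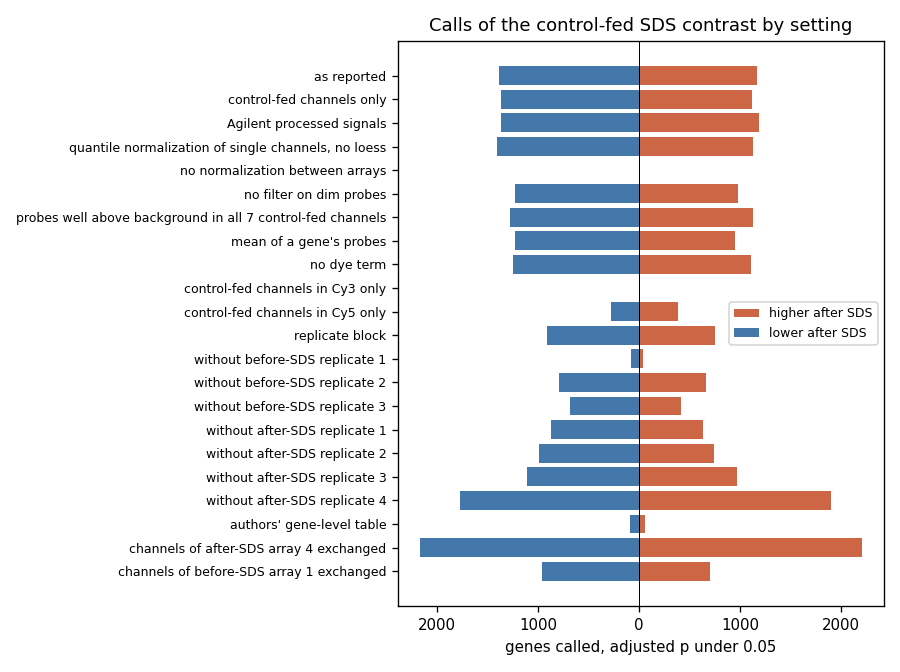
Genes called higher (right of 0) and lower (left of 0) after SDS in control-fed skin at an adjusted p under 0.05, for the analysis as reported and each alternative. The counts fall to 35 and 77 without before-SDS sample 1, reach 1895 and 1772 without after-SDS sample 4, and are 0 with Cy3 channels alone or with no normalization between arrays.

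The largest rise was that of Slc4a7, which encodes a sodium bicarbonate cotransporter. Its log2 levels were 8.81, 8.89 and 10.55 before SDS and 12.30, 15.49, 14.84 and 11.36 after. The groups did not overlap, but the after-SDS samples spread widely, and the log2 difference was 4.13 (SE 1.16, adjusted p = 0.0334). It was read by a single probe.

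Most of the other large rises were of genes that myeloid cells or hair shafts express. Chil3, a chitinase-like protein of activated macrophages, had log2 levels of 8.67, 10.13 and 8.82 before and 12.92, 11.77, 11.82 and 10.72 after SDS, a difference of 2.55 (SE 0.64, adjusted p = 0.0208). Clec4e, a receptor for damaged cells and mycobacterial glycolipid, rose by 2.20 (SE 0.64), from 9.43, 10.55 and 9.29 to 12.57, 12.06, 12.50 and 10.98. Acod1, which makes itaconate in activated macrophages, rose by 2.09 (SE 0.65, adjusted p = 0.0486), from 8.44, 9.82 and 8.76 to 11.51, 11.28, 11.67 and 10.05. In these genes before-SDS sample 2 was the highest of its group and after-SDS sample 4 the lowest of its own. The cytokine Il1b showed the same order, at 8.49, 9.54 and 8.74 before and 11.02, 10.93, 10.93 and 9.79 after, a rise of 1.73 (SE 0.49, adjusted p = 0.0357). The chemokine Ccl4 rose by 1.72 (SE 0.48). Without after-SDS sample 4 the log2 differences were 3.06 for Chil3, 2.70 for Clec4e, 2.64 for Acod1, 2.17 for Il1b and 2.14 for Ccl4; without before-SDS sample 1 they were 1.80, 1.67, 1.54, 1.29 and 1.45, and none of the 5 passed the test.

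The remaining 4 of the 10 largest rises were of a muscle gene, 2 hair keratins and a peptide hormone. Actn3, the actin crosslinker of fast muscle fibres, had levels of 11.05, 11.63 and 11.59 before and 13.44, 13.16, 14.15 and 13.08 after, a rise of 2.04 (SE 0.49, adjusted p = 0.0172). Krt35 rose by 1.99 (SE 0.40) and Krt33b by 1.65 (SE 0.39); both are keratins of the hair cortex and cuticle. Sct, which encodes secretin, rose by 1.68 (SE 0.42), from 9.06, 10.68 and 9.36 to 11.94, 11.53, 10.72 and 11.28, with less than 0.1 between the highest before-SDS and the lowest after-SDS sample.

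The largest fall was in Krt2, a keratin of the late suprabasal layers. Its levels were 11.96, 12.39 and 10.99 before SDS and 9.50, 9.48, 9.41 and 10.86 after, a fall of 1.97 (SE 0.49, adjusted p = 0.0196). After-SDS samples 1, 2 and 3 were close together and sample 4 stood apart, near the lowest before-SDS sample. Cthrc1, a secreted protein of collagen-producing fibroblasts, fell by 1.76 (SE 0.29), from 11.86, 12.21 and 12.08 to 10.10, 10.44, 9.95 and 10.72. Serpina3b, a serine protease inhibitor, fell by 1.55 (SE 0.26), and C7, a component of the complement membrane attack complex, fell by 1.52 (SE 0.26), from 10.12, 9.52 and 9.30 to 8.01, 7.77, 8.02 and 8.80. Neu2, a cytosolic sialidase, fell by 1.28 (SE 0.26), Clca3a1, of the chloride channel accessory family, by 1.25 (SE 0.18), and Cpz, a carboxypeptidase of the extracellular matrix, by 1.24 (SE 0.29).

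For the other 3 of the 10 largest falls, probes of the same gene disagreed. The reported probe of Dst, the plectin-related linker of hemidesmosomes, fell by 1.53 (SE 0.21), while its 3 other probes had mean differences of -1.20, -0.11 and 0.06. The reported probe of H1f10, a linker histone, fell by 1.52 (SE 0.34) and its other probe differed by 0.02. The reported probe of Fbxo2, a ubiquitin ligase subunit that binds glycoproteins, fell by 1.33 (SE 0.16) and the other 2 differed by -0.05 and 0.10.

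**Figure D2:**
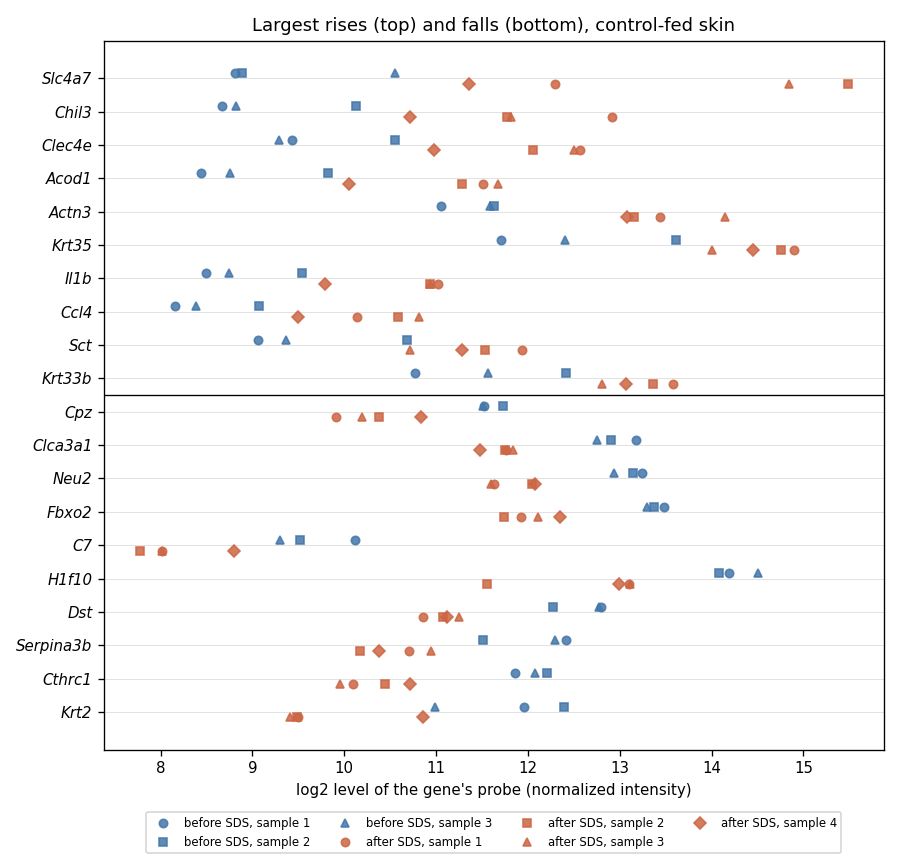
Log2 levels of the 10 genes with the largest rises (above the line) and the 10 with the largest falls (below it), 1 point per control-fed sample, blue before and orange after SDS. No gene shown has overlapping groups; after-SDS sample 4 (diamond) is nearest to the before-SDS group in, for example, Chil3, Clec4e, Acod1, Il1b, Ccl4, Krt2 and C7.

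Gene groups were read against the shares of 6.83% higher and 8.09% lower over all genes. Counts near these shares, such as 4 of 40 cornified envelope and 2 of 22 tight junction genes that fell, do not set a group apart. The groups with the highest median log2 difference were hair follicle genes at 0.91, erythrocyte genes at 0.71, melanocyte genes at 0.67 and neutrophil genes at 0.53. The lowest medians were those of the epidermal lipid barrier at -0.42, the cornified envelope at -0.34 and suprabasal differentiation at -0.30.

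**Figure D3:**
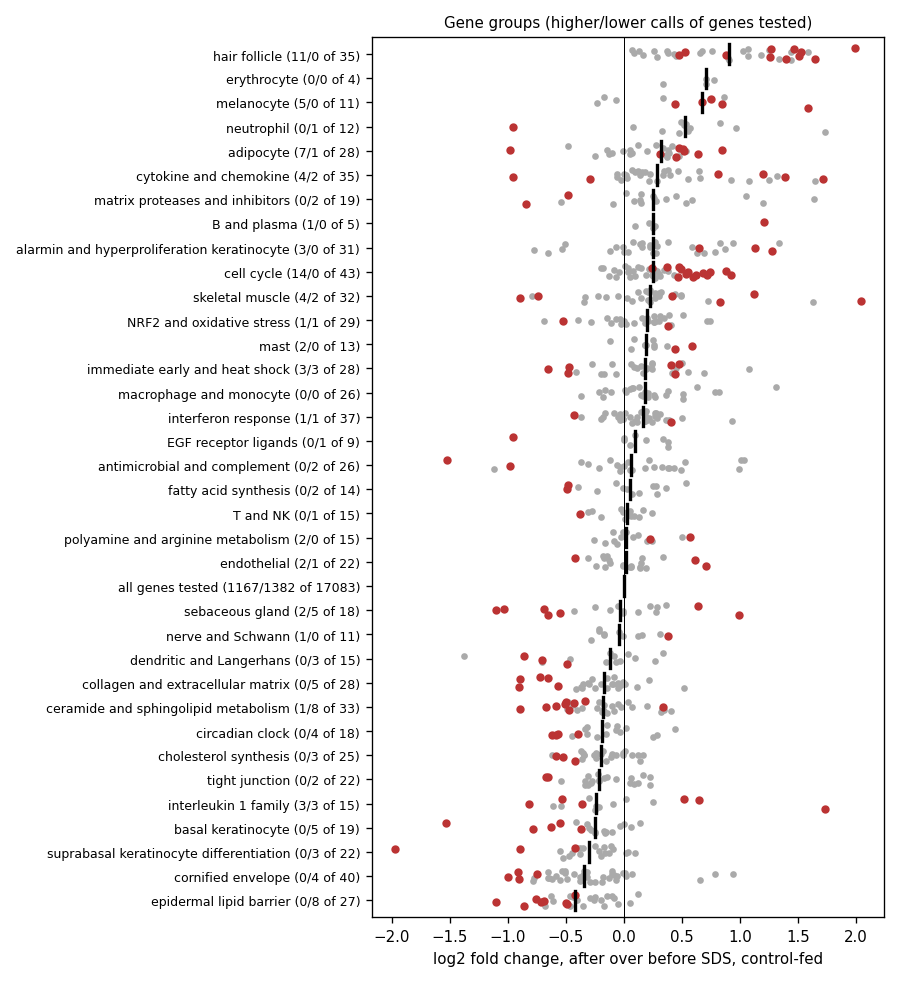
Log2 difference after against before SDS in control-fed skin for each tested member of 35 gene groups, with red points for genes that passed the test, grey for those that did not, and a black bar at the median; labels give higher and lower calls of the genes tested. Hair follicle members all lie to the right of 0, and the median over all genes is 0.00.

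**Figure D4:**
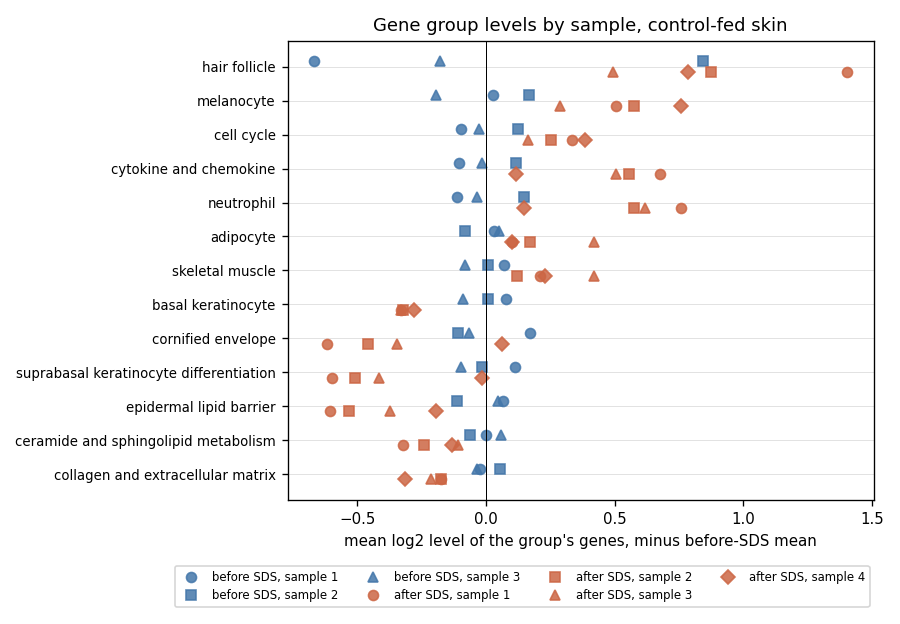
Mean log2 level of a group's tested genes in each control-fed sample, minus the mean of the 3 before-SDS samples. After-SDS sample 4 lies within the range of the before-SDS samples for the cornified envelope, suprabasal, cytokine and neutrophil groups, and before-SDS sample 2 lies within the after-SDS samples for hair follicle genes.

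Of the epidermal structural genes chosen for description, 7 did not pass the test. Krt5 differed by 0.00 (SE 0.16), Krt14 by -0.16 (SE 0.18), Krt1 by -0.35 (SE 0.32), Krt10 by -0.20 (SE 0.43), loricrin (Lor) by -0.10 (SE 0.35), filaggrin (Flg) by -0.07 (SE 0.32) and involucrin (Ivl) by -0.64 (SE 0.22, adjusted p = 0.0645). For Lor the levels were 17.20, 16.57 and 16.77 before and 16.09, 16.66, 16.54 and 17.52 after SDS, so that the after-SDS samples lay both below and above all before-SDS samples. Krt1, Krt10 and Flg had the same spread, with after-SDS sample 1 lowest and sample 4 highest of all 7.

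Of 40 tested cornified envelope genes, 4 fell, 0 rose and 34 were below 0. The share that fell was near the 8.09% of all genes. Ppl, the envelope scaffold periplakin, fell by 1.00 (SE 0.18, adjusted p = 0.00573), from 13.37, 13.25 and 13.45 to 12.11, 12.09, 12.49 and 12.58, with no overlap. Scel, the envelope precursor sciellin, fell by 0.90 (SE 0.18), Casp14, the caspase that processes filaggrin, by 0.91 (SE 0.22), and Krtdap, a secreted differentiation peptide, by 0.75 (SE 0.22). The group's mean level was 13.56, 13.28 and 13.32 before SDS and 12.77, 12.93, 13.04 and 13.45 after. When 1 sample was left out, the count that fell ran from 0, without before-SDS sample 1, to 16, without after-SDS sample 4. Over all 17083 genes, 77 and 1772 fell in these 2 fits.

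Of 22 tested suprabasal differentiation genes, 3 fell and 0 rose. Beside Krt2 these were Klk8, a kallikrein protease of desquamation, which fell by 0.89 (SE 0.26), and Dsp, the desmosome plaque protein desmoplakin, which fell by 0.42 (SE 0.13, adjusted p = 0.0496). Without after-SDS sample 4 the count was 10, and without before-SDS sample 1 or after-SDS sample 2 it was 0. Among 22 tight junction genes, Cldn1, the main claudin of the epidermal seal, fell by 0.65 (SE 0.14, adjusted p = 0.0104), from 10.38, 10.52 and 10.42 to 9.77, 9.53, 9.73 and 10.03. Cldn23 fell by 0.67 (SE 0.17), and the other 20 did not pass the test. These 2 of 22 stand beside 8.09% of all genes that passed as lower. In 10 of the 22 all after-SDS samples lay below all before-SDS samples, against 16.1% of all genes. In 1 of the 22 they lay above, against 14.7% of all genes.

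Of 33 tested genes of ceramide and sphingolipid metabolism, 8 fell and 1 rose, with a median of -0.18. Cers5, a ceramide synthase for palmitoyl chains, had levels of 12.89, 13.06 and 12.95 before and 11.99, 11.73, 12.25 and 12.16 after SDS, a fall of 0.89 (SE 0.13, adjusted p = 0.00287). It passed the test with any 1 sample left out. The other ceramide synthases tested did not pass: Cers2 differed by 0.35, Cers6 by 0.32 and Cers4 by -0.17. Cers3, also of this group, had no probe named for it on the array. The alkaline ceramidase Acer2 fell by 0.58 (SE 0.10) and the sphingosine kinase Sphk2 by 0.43 (SE 0.07). Another ceramidase, Acer3, rose by 0.34 (SE 0.07, adjusted p = 0.00866), from 10.37, 10.33 and 10.25 to 10.85, 10.77, 10.60 and 10.51, but its other probe differed by only 0.01. The other probes of Acer2 differed by -0.36 and 0.03. The reported probe of Ugcg, which makes glucosylceramide from ceramide, differed by 0.07 (SE 0.08), at 12.23, 12.19 and 12.07 before and 12.26, 12.13, 12.22 and 12.30 after. Its other probes had mean differences of -0.30 and 0.12.

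Of 27 tested genes of the wider epidermal lipid barrier, 8 fell and 0 rose, and 25 were below 0. Alox12b, the lipoxygenase that starts the oxidation of the ceramide linoleate needed for the cell envelope, had levels of 10.33, 9.89 and 10.09 before and 9.14, 9.15, 9.15 and 9.49 after, a fall of 0.86 (SE 0.14, adjusted p = 0.00375). Elovl1, which elongates very long chain fatty acids, fell by 0.76 (SE 0.12), Awat2, a wax synthase, by 0.69 (SE 0.16), and Pla2g2f, the secreted phospholipase of the upper epidermis, by 0.50 (SE 0.12). The count that fell ran from 0 without before-SDS sample 1 to 17 without after-SDS sample 4. Of 25 cholesterol synthesis genes 0 rose and 3 fell: the cyclase Lss by 0.58 (SE 0.11), the demethylase Cyp51 by 0.52 (SE 0.16) and the decarboxylase Mvd by 0.42 (SE 0.13). Of 14 fatty acid synthesis genes, the malic enzyme Me1 fell by 0.49 (SE 0.14) and the carboxylase Acacb by 0.48 (SE 0.15), and the median of the group was 0.05.

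Of 19 basal keratinocyte genes, 5 fell and 0 rose. Col17a1, the transmembrane collagen of hemidesmosomes, fell by 0.78 (SE 0.17, adjusted p = 0.0127), from 14.64, 14.44 and 14.28 to 13.55, 13.85, 13.61 and 13.73. Lamb3, a chain of the basement membrane laminin, fell by 0.63 (SE 0.12), and Itgb4, the hemidesmosome integrin, by 0.37 (SE 0.08). Together with the reported probe of Dst these genes belong to the hemidesmosome, the anchor of basal cells to the basement membrane. The group's mean level was 12.09, 12.02 and 11.92 before and 11.68, 11.69, 11.68 and 11.73 after, without overlap and with after-SDS sample 4 beside the others. Without before-SDS sample 1 none of the 19 passed.

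In the dermis, 5 of 28 collagen and matrix genes fell and 0 rose. Lox, which crosslinks collagen and elastin, fell by 0.90 (SE 0.14, adjusted p = 0.00294), from 11.69, 11.37 and 11.12 to 10.74, 10.72, 10.37 and 10.40. Sparc, a collagen-binding matrix protein, fell by 0.89 (SE 0.16), the proteoglycan gene Ogn by 0.72 (SE 0.12) and elastin (Eln) by 0.57 (SE 0.10). The reported probe of Col1a1 differed by -0.31 (SE 0.22), while its 2 other probes had mean differences of -1.50 and -0.87. Of 19 matrix proteases and inhibitors, 0 rose and 2 fell: the gelatinase Mmp2 by 0.84 (SE 0.14), from 13.55, 13.81 and 13.95 to 12.64, 12.79, 13.18 and 12.93, and the inhibitor Timp3 by 0.48 (SE 0.08). Without after-SDS sample 4, 6 others of this group passed as higher.

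Of 31 tested alarmin and hyperproliferation genes of keratinocytes, 3 rose and 0 fell. Krt16, a keratin of wounded and hyperproliferative epidermis, had levels of 14.02, 14.13 and 13.36 before and 14.72, 15.04, 14.68 and 15.42 after SDS, a rise of 1.13 (SE 0.31, adjusted p = 0.0317). Plaur, the urokinase receptor, rose by 1.28 (SE 0.37) and the alarmin Il33 by 0.65 (SE 0.19). The partner keratins did not pass: Krt6a differed by 0.23 (SE 0.25) and Krt6b by 0.69 (SE 0.28, adjusted p = 0.115). The calprotectin subunits were higher on average but overlapped. S100a8 was at 10.06, 10.32 and 9.40 before and 11.81, 11.01, 11.07 and 9.61 after (0.87, SE 0.52, adjusted p = 0.267), and S100a9 at 13.03, 13.89 and 12.53 before and 15.31, 14.40, 15.11 and 13.37 after (1.34, SE 0.58, adjusted p = 0.13). In both, after-SDS sample 4 lay within the before-SDS range; without it the differences were 1.39 and 1.89, and both passed.

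Of 15 interleukin 1 family genes, 3 rose and 3 fell. Beside Il1b and Il33, the signalling receptor Il1r1 rose by 0.52 (SE 0.09, adjusted p = 0.00449), from 11.79, 11.72 and 11.51 to 12.42, 12.38, 12.11 and 12.04. The decoy receptor Il1r2 fell by 0.82 (SE 0.19), the interleukin 36 receptor Il1rl2 by 0.53 (SE 0.11) and the shared coreceptor Il1rap by 0.36 (SE 0.08). Of 9 EGF receptor ligands, only Btc (betacellulin) passed, and it fell by 0.95 (SE 0.20), from 9.59, 9.34 and 9.77 to 8.52, 8.76, 8.71 and 8.54.

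Of 35 tested cytokines and chemokines, 4 rose and 2 fell. Ccl19, the ligand that draws dendritic and T cells to lymphoid tissue, rose by 0.81 (SE 0.14, adjusted p = 0.00496), from 13.46, 13.33 and 13.37 to 14.53, 14.13, 14.10 and 14.14. Cxcl13, which attracts B cells, rose by 1.20 (SE 0.27), and Ccl4 and the monocyte chemokine Ccl2 also rose. Ccl27a, the keratinocyte chemokine for skin-homing T cells, fell by 0.95 (SE 0.14, adjusted p = 0.00287), from 13.19, 13.02 and 13.39 to 12.62, 11.96, 12.24 and 12.23, and passed with any 1 sample left out. Il13 passed as lower, but was well above background in only 1 before-SDS and 0 after-SDS samples, so the size of its fall cannot be read. Without after-SDS sample 4, 17 genes of this group were higher, and without before-SDS sample 1 none was.

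Leukocyte markers passed in few cases. Of 12 neutrophil markers, Mpo fell by 0.95 (SE 0.26), 0 rose, and 11 were above 0; the group's mean level was 8.19, 8.45 and 8.27 before and 9.06, 8.88, 8.92 and 8.45 after. Of 26 macrophage and monocyte markers none passed in either direction with limma (5 at an unadjusted p under 0.05), with mean levels of 11.69, 11.82 and 12.05 before and 12.24, 12.26, 12.33 and 11.63 after. Without after-SDS sample 4, 9 neutrophil and 12 macrophage markers were higher. Langerhans cells, the dendritic cells of the epidermis, are marked by Cd207 (langerin), which fell by 0.86 (SE 0.14, adjusted p = 0.00334), from 11.77, 11.49 and 11.81 to 10.54, 10.84, 10.85 and 11.01. The adhesion molecule Epcam fell by 0.49 (SE 0.10) and the class II gene H2-Ab1 by 0.70 (SE 0.18), and the other 12 of the 15 dendritic markers did not pass. In whole skin, fewer cells of a type and less RNA per cell cannot be told apart. Of 15 T and NK markers 1 passed, the T cell gene Cd3e, which fell by 0.38 (SE 0.07). Cd3e was well above background in only 2 after-SDS samples, and Cd3d and Cd3g differed by 0.05 and -0.01. The antibody joining chain Jchain rose by 1.21 (SE 0.28), as 1 of 5 B and plasma markers. Among 13 mast cell markers, Kit and the protease Mcpt4 rose by 0.44 (SE 0.07) and 0.59 (SE 0.16).

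Of 43 cell cycle genes, 14 rose, 0 fell and 29 did not pass; 37 were above 0, with a median of 0.25. The 14 were mainly genes of mitosis. Aurka, the kinase of spindle poles, had levels of 9.51, 9.94 and 9.77 before and 10.58, 10.61, 10.45 and 10.71 after SDS, a rise of 0.88 (SE 0.13, adjusted p = 0.00308). Cenpe, a kinetochore motor, rose by 0.92 (SE 0.19), although its other probes differed by only 0.11 and 0.18. Birc5 (survivin) rose by 0.72 (SE 0.15) and Plk1, the polo kinase, by 0.68 (SE 0.14), from 9.55, 9.94 and 9.67 to 10.50, 10.27, 10.25 and 10.48. Mki67 differed by 0.38 (SE 0.19, adjusted p = 0.194). After-SDS sample 4 had the highest mean level of the group, 10.22, against 10.17, 10.09 and 10.00 in the other after-SDS samples and 9.74, 9.96 and 9.81 before. The count ran from 0 without before-SDS sample 1 to 20 without after-SDS sample 3, and was 12 without after-SDS sample 4.

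Promoters of mitotic genes are known to carry CCAAT boxes, bound by the factor NF-Y, so the upstream sequence of the cell cycle genes that rose was read. RefSeq (GRCm38.p6) gave a promoter for 11 of the 14. The motif CCAAT, on either strand (CCAAT or ATTGG), lay within 150 bases before the start in 9 of the 11 (81.8%), in 15 of the 23 other cell cycle genes with a promoter (65.2%), and in 27.7% of the 11476 tested genes with one. Over the 856 genes that rose and had a promoter it was 30.5%. These shares are a description of the letters and show no binding. The 150 bases before the start of 4 of these genes are given 5′ to 3′ on the gene's strand, with each CCAAT in capitals, to show how the motif repeats. They lie at chr2:172370571-172370720 on the minus strand for Aurka, chr9:70421555-70421704 on the minus strand for Ccnb2 (cyclin B2), chr4:118437344-118437493 on the minus strand for Cdc20 (an activator of the anaphase-promoting complex) and chr7:122159285-122159434 on the plus strand for Plk1.
Aurka: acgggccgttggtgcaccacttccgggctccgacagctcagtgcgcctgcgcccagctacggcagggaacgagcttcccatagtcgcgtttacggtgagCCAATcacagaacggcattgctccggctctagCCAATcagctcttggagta
Ccnb2: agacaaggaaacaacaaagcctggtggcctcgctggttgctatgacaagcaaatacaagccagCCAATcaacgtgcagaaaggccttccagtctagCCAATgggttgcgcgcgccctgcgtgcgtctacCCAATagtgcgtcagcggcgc
Cdc20: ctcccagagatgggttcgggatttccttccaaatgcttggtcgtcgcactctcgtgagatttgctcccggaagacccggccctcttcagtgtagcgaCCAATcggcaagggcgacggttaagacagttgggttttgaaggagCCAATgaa
Plk1: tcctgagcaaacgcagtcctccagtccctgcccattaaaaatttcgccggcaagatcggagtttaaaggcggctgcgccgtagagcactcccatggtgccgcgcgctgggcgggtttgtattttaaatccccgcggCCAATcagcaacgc
These 4 were chosen after the counts were seen. Ccnb2 held 3 copies of CCAAT, Aurka and Cdc20 held 2 and Plk1 held 1. Among the other 7 genes, Ccnb1 held 2, Cenpe and Uhrf1 held 1, Cenpa held 2 in the opposite orientation (ATTGG), Bub1 held 1 in each, and Birc5 and Tyms held 0.

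Hair follicle genes had the highest median of the groups described, 0.91: 11 of 35 tested rose, 0 fell and all 35 were above 0. Krt35 had levels of 11.71, 13.61 and 12.40 before and 14.90, 14.76, 14.00 and 14.45 after (adjusted p = 0.00849). Krt85, another hair keratin, rose by 1.47 (SE 0.27, adjusted p = 0.00576), from 10.82, 12.60 and 11.67 to 13.37, 12.88, 12.98 and 13.17, and Krt32 by 1.51 (SE 0.33). The before-SDS samples differed among themselves: the mean level over the 35 genes was 10.52, 12.03 and 11.01 before SDS and 12.59, 12.06, 11.68 and 11.97 after, so that before-SDS sample 2 lay within the after-SDS range. Without that sample 23 genes rose and the median was 1.51; without before-SDS sample 1 none passed and the median was 0.39. Phase of the hair growth cycle was not recorded in the labels and its part in the difference was not tested.

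Of 11 melanocyte markers 5 rose and 0 fell. Dct, an enzyme of melanin synthesis, had levels of 11.59, 12.16 and 10.72 before and 12.99, 13.26, 12.46 and 13.67 after, a rise of 1.59 (SE 0.35, adjusted p = 0.0124). The transporter Slc45a2 rose by 0.75 (SE 0.21), the endothelin receptor Ednrb by 0.67 (SE 0.19) and Kit as above. Without before-SDS sample 1, 1 of the 11 passed.

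Sebaceous gland genes moved in both directions: of 18, 5 fell and 2 rose. Acsbg1, an acyl-CoA synthetase, fell by 1.03 (SE 0.24, adjusted p = 0.0159), from 13.50, 13.20 and 13.46 to 11.91, 12.13, 12.45 and 12.78. Mogat2, an acyltransferase of triglyceride synthesis, rose by 0.99 (SE 0.14, adjusted p = 0.00287), from 7.53, 7.76 and 7.57 to 8.19, 8.68, 8.93 and 8.57, and passed with any 1 sample left out. The sterol acyltransferase Soat1 rose by 0.64 (SE 0.15).

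Some markers of the tissues beneath the dermis also passed the test, in both directions. The median log2 difference was 0.32 for adipocyte and 0.23 for skeletal muscle genes. In GC-fed skin on the same slides these medians were -0.07 and -0.27. Of 28 adipocyte genes, 7 rose and 1 fell. The hormone adiponectin (Adipoq) rose by 0.64 (SE 0.14, adjusted p = 0.0111), from 14.37, 14.17 and 14.42 to 14.99, 14.87, 15.32 and 14.67, the glycerol channel Aqp7 by 0.48 (SE 0.09) and the glycerol phosphate dehydrogenase Gpd1 by 0.51 (SE 0.07), while the acute phase protein Orm1 fell by 0.98 (SE 0.21). The mean adipocyte level was 12.52, 12.41 and 12.54 before and 12.59, 12.66, 12.91 and 12.59 after. Of 32 skeletal muscle genes, 4 rose and 2 fell. Beside Actn3, the fast-fibre calcium buffer Pvalb rose by 1.12 (SE 0.29), Myh7 by 0.83 (SE 0.25) and Myl2 by 0.42 (SE 0.12). The 2 that fell were myoglobin (Mb), by 0.74 (SE 0.16), and Actn2, by 0.89 (SE 0.21). The mean muscle level was 12.80, 12.74 and 12.65 before and 12.94, 12.85, 13.15 and 12.96 after, with after-SDS sample 3 highest for both tissues. How much fat and muscle each sample held, and its part in the other differences, was not tested. Among 22 endothelial genes, the vascular growth factor receptor Flt1 rose by 0.61 (SE 0.11), the adhesion molecule Icam1 rose by 0.71 (SE 0.19) and the clotting factor carrier Vwf fell by 0.42 (SE 0.13). Of 11 nerve markers Ncam1 rose by 0.38 (SE 0.11), and none of 4 erythrocyte genes passed with limma (2 at an unadjusted p under 0.05).

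Of 28 immediate early and heat shock genes 3 rose and 3 fell. The transcription factors Jund and Myc rose by 0.48 (SE 0.09) and 0.41 (SE 0.08), and the heat shock protein Hsph1 rose by 0.44 (SE 0.12). The heat shock proteins Hspb1, Hspa8 and Hspa1a fell by 0.65 (SE 0.09), 0.48 (SE 0.10) and 0.47. Hspb1 was at 14.35, 14.40 and 14.23 before and 13.88, 13.52, 13.66 and 13.67 after (adjusted p = 0.00287), and passed with any 1 sample left out. Of 29 NRF2 and oxidative stress genes, the quinone reductase Nqo1 rose by 0.38 (SE 0.08) and the peroxiredoxin Prdx6 fell by 0.52 (SE 0.11); without after-SDS sample 4, 12 rose. Among 37 interferon response genes, whose median was 0.17, the peptide transporter Tap1 fell by 0.43 (SE 0.12). Of 26 antimicrobial and complement genes, C7 and Orm1 fell and 0 rose.

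Of 18 clock genes 4 fell and 0 rose. Tef, a transcription factor driven by the clock, fell by 0.58 (SE 0.09, adjusted p = 0.00376), from 11.84, 11.90 and 11.99 to 11.13, 11.13, 11.54 and 11.44, its relative Hlf by 0.57 (SE 0.14), Per2 by 0.62 (SE 0.12) and Cry2 by 0.39 (SE 0.12). The other probes of Tef differed by -0.17, -0.17 and -0.06 and that of Per2 by -0.06. The labels give no hour of sampling. Of 15 genes of polyamine and arginine metabolism, Odc1, the rate-limiting enzyme of polyamine synthesis, rose by 0.57 (SE 0.10, adjusted p = 0.00497), from 12.85, 12.92 and 12.75 to 13.44, 13.71, 13.25 and 13.32, and its inhibitor Oaz1 rose by 0.23 (SE 0.07).

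Of the 125 genes chosen by the naming rule, 110 passed the test. None of the 110 changed sign when 1 sample was left out, but neither did any of the 2549 genes that passed. Most named genes were picked for a small p or a large difference, so a stable sign does not set them apart. In all 7 such fits 9 passed, while 101 lost their call without before-SDS sample 1 and 3 without after-SDS sample 4. Of the 101, 43 lost it in that fit only, and the rest also lost it in at least 1 other fit. Slc4a7, Krt16 and Plaur passed in 2 of the 7 fits, and Il33, Il1b, Acod1 and Ccl4 in 1. Of all 2549 genes that passed, 110 kept their call without before-SDS sample 1. The 9 were Ccl27a, Cers5, Mogat2, Hspb1, Kit, Fbxo2, Gpd1, Cdkn2c (a cyclin-dependent kinase inhibitor) and Cdo1 (cysteine dioxygenase).

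Values above are those of a gene's brightest probe, and for further genes that passed, another probe gave less than 0.5 of the size or the opposite sign. The other probes of Ncam1 differed by -0.13, 0.02 and 0.36, those of Il1rap by -0.18 and 0.15, those of Dsp by -0.33, -0.22 and 0.05, and those of Prdx6 by -0.59, -0.06 and 0.00. The other probe of Acacb differed by -0.09, that of Cldn1 by -0.20, that of Sparc by -0.25, that of Il1rl2 by -0.15, that of Vwf by -0.17, that of Icam1 by 0.32 and that of Aqp7 by 0.22. Those of Odc1 differed by 0.17 and 0.36, of Myc by 0.09 and 0.26, of Flt1 by 0.13 and 0.21, and of Soat1 by 0.24, 0.28 and 0.70.

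The same SDS contrast was made in the GC-fed channels of the same arrays, which carry other samples but share the slides. There, 1072 genes were higher (6.28%) and 1236 lower (7.24%). Of the genes that passed in control-fed skin, 637 that rose and 828 that fell also passed in GC-fed skin. With all arrays, 0 of 17083 genes (0%) passed the limma test that the SDS effect differed between diets, with 306 at an unadjusted p under 0.05. Hair follicle and cell cycle genes had medians of 1.60 and 0.41 in GC-fed skin, with 25 and 24 that rose, against 0.91 and 0.25 with 11 and 14 in control-fed skin. The 5 smallest unadjusted p-values belonged to Cdo1, Gpd1, Wwc1, Aldh1l1 and Cdkn2c, none of which passed after adjustment. Cdo1 rose by 0.74 (SE 0.11) in control-fed skin and differed by -0.07 in GC-fed skin. Wwc1, a regulator of the Hippo pathway, differed by -0.33 in control-fed skin and by 0.78 in GC-fed skin.

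That count of 0 changed when after-SDS array 4 was left out. The array was singled out because its ratio of GC-fed to control-fed ran against the others. This test uses the same values, so the counts below depend on that choice. They are no independent evidence of a diet difference. Without array 4, 232 of 17083 genes (1.36%) passed for a difference of the SDS effect between diets, 195 with the lower value in GC-fed skin. With its channels exchanged 232 also passed, 191 of them in both fits. In the fit without the array, 209 of the 232 also passed for SDS in control-fed skin. In 198 of these the difference in GC-fed skin was smaller in size. The control-fed difference is itself a term of the test that picked the 232. A large control-fed value was therefore favoured by the selection, and these 2 counts are not a separate result. The 232 included 8 of 26 macrophage markers and 4 of 35 cytokines and chemokines, all with the lower value in GC-fed skin, and 4 of 22 suprabasal genes, all with the higher value there. Among the macrophage markers the lysozyme gene Lyz2 differed by 0.70 in control-fed and -1.23 in GC-fed skin, the larger size in GC-fed skin. Also chosen after their values were seen, Mmp12, a macrophage elastase, differed by 2.14 in control-fed and -1.30 in GC-fed skin, and Itgax, the integrin CD11c of macrophages and dendritic cells, by 1.71 and -0.77. Clec4e differed by 2.70 and -0.14, and Il1b by 2.17 and -0.06. With all arrays, Il1b differed by 1.73 in control-fed skin and 0.49 in GC-fed skin, and Clec4e by 2.20 and 0.70.

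**Figure D5:**
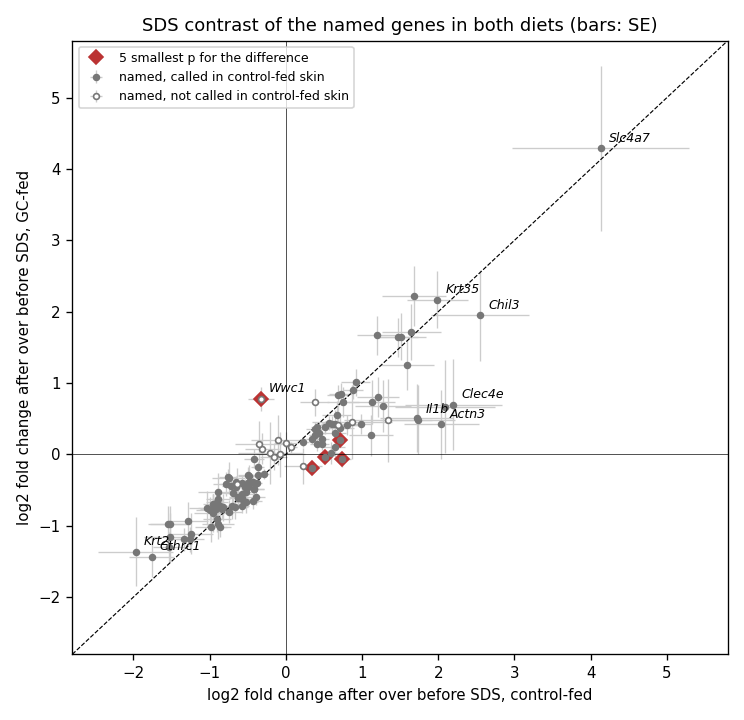
Log2 difference after against before SDS in control-fed skin (horizontal) and GC-fed skin (vertical) for the 125 named genes, with SE bars and all arrays; the dashed line marks equal values and red diamonds the 5 genes with the smallest p for the difference. Slc4a7 lies near the line, while Clec4e, Il1b and Actn3 lie below it, at 2.20 and 0.70, 1.73 and 0.49, and 2.04 and 0.42.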

How the data were processed

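Per the file headers, the deposited scanner files hold spot intensity (mean signal and median local background) in both dyes of 7 Agilent-014868 arrays, extracted with Feature Extraction 9.1.3.1; the authors' software also gave a processed intensity. The deposited gene-level table holds the authors' intensity values with a floor of 200 and served as an alternative. The flags per spot, deposited in the same files, gave the calls of well above background and the spots left out.

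Signals were background-corrected (normexp, offset 50), loess-normalized within and Aquantile-normalized between arrays, with limma 3.58.1 in R 4.3.3. Spots of a probe were averaged, and probes with a value on every array and well above background in at least 3 of 14 channels were kept (25117 of 41174). Each gene is represented by its brightest probe, which left 17083 genes. Names came from accession (22951 probes), symbol (6659) or synonym (3109) in RefSeq, or the file (8455). Of the 1167 genes called higher, 31 were well above background in no control-fed before-SDS sample. Of the 1382 called lower, 44 were so in no control-fed after-SDS sample. The filter also counted GC-fed channels.

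Log2 levels of all 14 channels entered 1 separate-channel fit (lmscFit, eBayes) with 4 groups and a dye term (50 genes called for dye, 10 of them also for SDS), with within-spot correlation -0.00076, 9 residual and 3.38 prior degrees of freedom. Adjusted p-values are limma's with Benjamini-Hochberg adjustment over all genes. Named genes are the 10 largest rises and falls among called genes without overlap, up to 4 called members of a list with the smallest p, 17 fixed skin genes and the 5 smallest p-values for the diet difference; further genes are marked as chosen after their values were seen. Genes and lists were chosen with earlier results of these data known. The fit was tested on simulated data. Alternatives covered background, normalization, filter, probes, dye, replicate block, samples left out and the authors' table. The result of 1 gene is not reported here.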

Additional observations from a re-analysis of the deposited data

Results flagged for a closer look

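In 9 of the 125 named genes, 1 of the 4 after-SDS samples stood apart from the other 3 by more than Dixon's critical value, which chance alone exceeds in about 1 in 20 groups. Sample 4 stood apart in 5 of them. The log2 level of Il1b in sample 4 was 9.79 against 10.93 to 11.02 in the others, that of Krt2 was 10.86 against 9.41 to 9.50, and that of Alox12b was 9.49 against 9.14 to 9.15. Pla2g2f was at 11.19 in sample 4 against 10.91 to 10.92, and Aqp7 at 8.14 against 8.32 to 8.36. In all 5 the value of sample 4 lay on the side of the before-SDS samples.

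Sample 1 stood apart in Ccl19, at 14.53 against 14.10 to 14.14, and in Wwc1, at 9.85 against 9.28 to 9.36. Sample 2 stood apart in H1f10, at 11.55 against 12.99 to 13.11, and in Krt6a, at 13 (exact to the decimals shown for the others) against 13.09 to 13.11. No test of the difference between diets passed with all arrays.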

How the results depend on the processing

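The SDS counts of 1167 higher and 1382 lower stayed within 1.5 times under 7 alternatives: control-fed channels fitted alone, processed signals, quantile normalization, no filter on dim probes, a stricter filter, the mean of a gene's probes and no dye term. With no normalization between arrays 0 genes were higher and 0 lower (508 at an unadjusted p under 0.05), the median of all genes moved to -0.26, and Oaz1 reversed to -0.06. In that fit the medians of hair follicle, melanocyte, neutrophil and cell cycle genes were 0.67, 0.36, 0.19 and -0.01, all above the -0.26 of all genes. Those of epidermal lipid, cornified and suprabasal genes were -0.70, -0.61 and -0.56, all below it. Cy3 channels alone gave 0 higher and 0 lower (3781 at an unadjusted p under 0.05), and Cy5 channels alone 382 and 282. The authors' gene-level table gave 59 and 89 of 11089 genes. Exchanging the channels of after-SDS array 4, chosen after seeing the data, gave 2202, 2164 and 232 genes for the diet difference; exchanging those of before-SDS array 1 gave 697, 965 and 1. Leaving out 1 sample gave 35 to 1895 higher, 77 to 1772 lower and 0 to 232 for the diet difference. The cause of these changes was not tested.

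Deviations of samples of the same number correlated at -0.3, 0.03 and 0.23 across the groups, and those of different number at -0.26 to 0.45. So few values cannot show whether the numbers pair the samples, and the reported fit did not pair them. The fit with a replicate block gave 754 higher and 907 lower and 0 for the diet difference.

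Signal over background limits dim genes: 550 of the genes tested were not well above background in any before-SDS sample and 392 in no after-SDS sample.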

Other observations

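These genes, most of them outside the lists, were chosen after their values were seen among called genes whose groups did not overlap. The homeobox genes Hoxa7, Hoxa9 and Hoxa10, which mark body position, fell by 1.03, 0.82 and 1.21. The imprinted noncoding RNA Meg3 fell by 1.14 and the noncoding RNA Gas5 by 0.82. Fkbp5 and Txnip, both known glucocorticoid-responsive genes, fell by 0.83 and 0.95. The acute phase proteins Orm1 and Orm2 fell by 0.98 and 1.01, and Clca3a2, a relative of Clca3a1, by 1.08. Among Wnt-related genes, Sfrp4, a secreted inhibitor, fell by 1.09 and Lef1, a nuclear effector expressed in the hair matrix, rose by 1.26. The alcohol dehydrogenases Adh7 and Adh6a fell by 0.95 and 1.00, and the cytochrome P450 gene Cyp2b19 by 0.89. Sdf2l1, an endoplasmic reticulum chaperone component, rose by 0.75, and Slc2a1, a glucose transporter, by 0.73.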
